A study of Mus musculus with 19 samples.

Results

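The genes described here are 10 genes of glutathione metabolism and the Nrf2 antioxidant response, chosen by name from 60567 listed genes: *Nfe2l2*, *Gclc*, *Gclm*, *Slc7a11*, *Gpx1*, *Gpx4*, *Gstm1*, *Hmox1*, *Nqo1* and *Txnrd1*. All 10 were found and all 10 passed the filter on low levels in every comparison. The study asked what the JAK2-STAT3 pathway does in hippocampal astrocytes of a mouse model of Alzheimer's disease, and blocked it with SOCS3, an inhibitor of this pathway. Cells of 9-month-old male mice were sorted by green fluorescent protein (GFP) and their mRNA was sequenced, giving 19 samples. Every mouse had received an adeno-associated virus whose gfaABC1D promoter drives GFP in astrocytes of the CA1 region, so no group was free of virus. WT-GFP astrocytes (7 samples) were the GFP+ cells of non-transgenic littermates. APP-GFP astrocytes (4 samples) were the GFP+ cells of the Alzheimer's disease model, a transgenic line on a C57BL/6J background whose transgenes include an *App* transgene (part mouse, part human, carrying the Swedish mutations). APP-SOCS3 astrocytes (5 samples) came from the same transgenic line, given the SOCS3 virus and the GFP virus together at the same total viral load. GFP- cells (3 samples) were the remaining cells of the WT-GFP mice and include microglia, neurons, oligodendrocyte precursors and astrocytes that the virus had not reached. Left and right hippocampus of a mouse were sorted separately, so 2 samples of a group may come from 1 mouse, and the sources used here do not say which do. The p-values below treat samples as independent and measure only the spread between them.

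Nrf2, the protein made from *Nfe2l2*, is a transcription factor that is held in the cytoplasm and degraded through Keap1 in resting cells. When electrophiles or oxidants modify Keap1, Nrf2 accumulates, pairs with small Maf proteins and binds antioxidant response elements near genes for glutathione synthesis, detoxification and thioredoxin reduction. Astrocytes are the main source of glutathione precursors for neurons, and they take up cystine through the exchanger whose light chain is made from *Slc7a11*.

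The promoter sequences show which of these genes carry the core letters of an antioxidant response element close to their start. RefSeq windows running from 250 bases before to 50 bases after the start (GRCm38.p6, the mm10 build) were at hand for 8 of the 10 genes. The letters TGACNNNGC were searched on both strands, and 3 of these 8 genes held them (37.5%), against 14.0% of 27025 genes with such a window. A gene counted if any of its windows matched. By window the share was 3 of 14 (21.4%), against 12.4% of 32851 windows of all genes. These 3 stretches are shown in the direction of the gene, 5′ to 3′, with the matching letters in capitals. In *Gclm* and *Txnrd1* the match lies on the other strand, so the capitals read as its complement. The last base of the match stood 232 bases before the start in *Nfe2l2*, the first stood 134 before in *Gclm* and 92 before the second of the listed starts in *Txnrd1*.
Nfe2l2, chr2:75704879-75704913, minus strand: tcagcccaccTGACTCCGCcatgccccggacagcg
Gclm, chr3:122245407-122245447, plus strand: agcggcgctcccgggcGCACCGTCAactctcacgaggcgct
Txnrd1, chr10:82859098-82859138, plus strand: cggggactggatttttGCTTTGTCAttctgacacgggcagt
A match of letters is not evidence of binding, and the windows are too short to cover distal elements. Each of the 3 stretches lies before the start and outside the annotated exons of its gene, and that of *Nfe2l2* overlaps an exon of the non-coding gene E030042O20Rik on the plus strand.

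Levels are read counts that the authors normalized between samples, so a level stands for about as many reads, with 1 read worth 0.756 to 1.18 in a sample. Sums over all genes were 19331876 to 32621917 reads per sample, and the lowest value of any of the 10 genes was 44 reads. Fewer than 20000 genes were detected in WT-GFP replicates 1, 2 and 3 and in APP-GFP replicate 2, with 15575 to 19198 genes. *Socs3* averaged 19463 in APP-SOCS3 astrocytes, where no sample overlapped the 438 to 1639 of the other astrocytes, and it averaged 14611 in GFP- cells. All 12 astrocyte markers were higher in WT-GFP astrocytes than in GFP- cells, among them the water channel gene *Aqp4* with means of 4872 and 554. GFP- cells also carried vascular markers, with summed levels averaging 161503 for 10 endothelial and 143941 for 8 mural markers. Their 12 microglial markers summed to 142009 on average and their 10 neuronal markers to 3885. The GFP+ samples also held transcripts of other cells. As a share of the GFP- mean, the summed level of 12 microglial markers was 7.01% to 24.4% for WT-GFP, 9.74% to 48.8% for APP-GFP and 5.20% to 9.45% for APP-SOCS3. The microglial receptor gene *Cx3cr1* averaged 757, 820 and 275 in these groups, and the endothelial tight junction gene *Cldn5* averaged 4401, 4596 and 785. Summed over 8 oligodendrocyte markers, GFP+ samples exceeded the GFP- mean. The shares were 189% to 247% for WT-GFP, 238% to 692% for APP-GFP and 152% to 245% for APP-SOCS3. Of these 8 genes, 3 were higher and 5 lower in WT-GFP astrocytes than in GFP- cells.

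Per kilobase of merged exon, *Gstm1* was the most abundant of the 10 genes in WT-GFP astrocytes, at 58793, and *Slc7a11* the least abundant, at 60.1. *Gpx1* (1873) and *Gpx4* (1284) followed *Gstm1*, and the other 6 genes lay between 159 and 405 per kilobase. These figures divide the mean level by the length of all annotated exons, whereas the reads were counted on part of them, so the order is approximate. In GFP- cells *Gpx1* came first at 7606 per kilobase and *Gstm1* second at 5589.

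**Figure D1:**
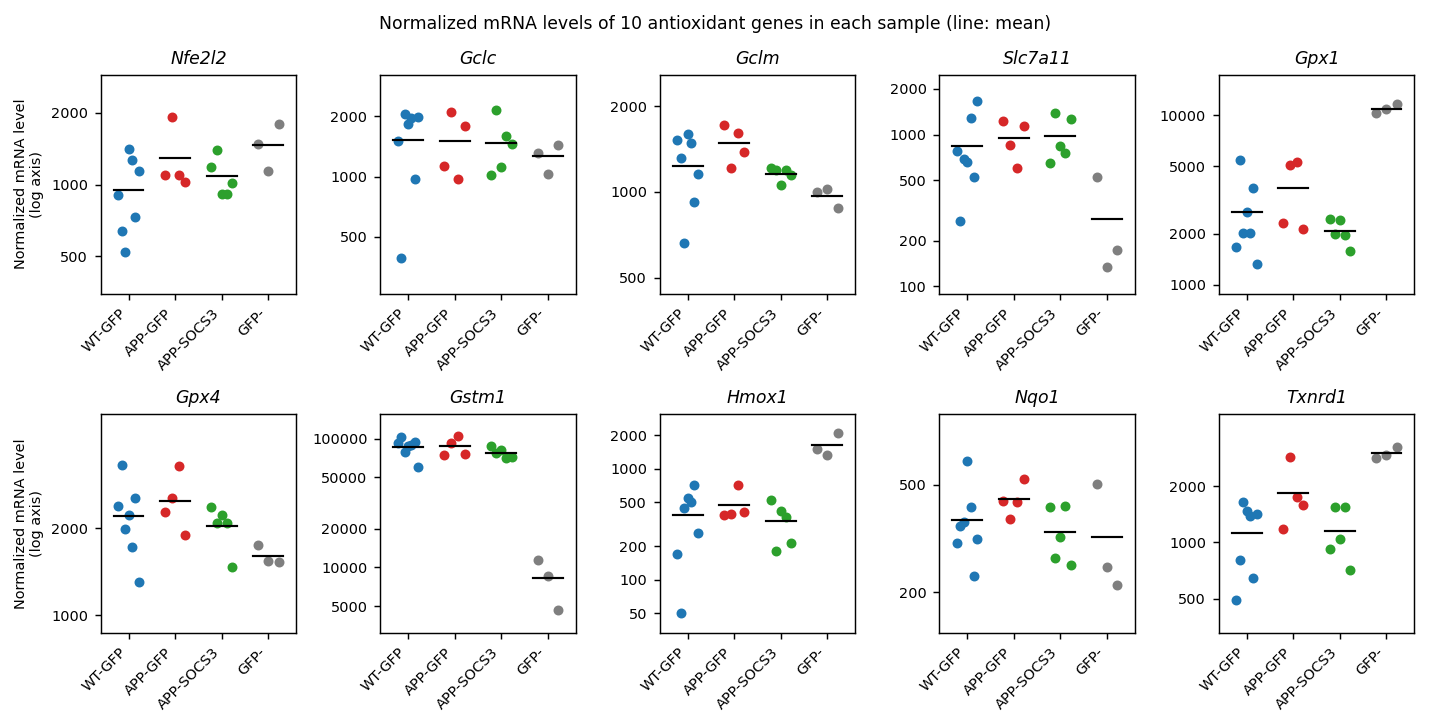
Normalized mRNA level of each of the 10 genes (vertical log axis, scaled separately for each gene) in each of 19 samples, by group. Points are samples and lines are group means. The 7 WT-GFP samples of *Gstm1* all sit above the 3 GFP- samples, and those of *Gpx1*, *Hmox1* and *Txnrd1* all sit below them, while the ranges of the 3 astrocyte groups overlap in each gene, except those of APP-SOCS3 and APP-GFP in *Gclm*.

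To ask where these genes are expressed, WT-GFP astrocytes were compared with GFP- cells of the same kind of mouse. A gene was called when its unadjusted p in limma was at most 0.05 and its fold change at least 1.5, the thresholds of the study. By this rule 5 of the 10 genes differed, against 42.8% of all genes tested. Of these, 2 were higher in astrocytes (9.25% of all genes) and 3 were lower (33.5% of all genes). All 5 had an adjusted p under 0.05, as had 31.9% of all genes. Fewer cells of a type and less RNA per cell cannot be told apart in sorted bulk samples. Over all genes tested the median log2 fold change was -1.31, and over the 10 genes it was 0.18. The former moved to -1.50 with samples scaled to equal totals, -0.67 with DESeq2 and -0.37 with edgeR.

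*Nfe2l2* (chromosome 2, 75675513 to 75704666, minus strand) had levels of 524 to 1412 with a median of 907 in WT-GFP astrocytes. In GFP- cells it was at 1476, 1145 and 1795. The lowest GFP- sample lay inside the astrocyte range, and the gene did not pass the test (log2 fold change -0.70 ± 0.332 SE, limma p = 0.0606, adjusted p = 0.133, exact permutation p = 0.0667). The call was sensitive to the fit. *Nfe2l2* was called lower with equal totals (-0.87), with all 19 samples in 1 fit (-0.70), in a fit blocked by replicate number (-1.11) and without WT-GFP replicate 4 (-0.81) or 5 (-0.78).

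The genes of glutathione synthesis differed among themselves. *Slc7a11* (chromosome 3, 49892525 to 50443614, minus strand) had levels of 268 to 1657 with a median of 689 in WT-GFP astrocytes. In GFP- cells it was at 527, 135 and 174. The highest GFP- sample lay above the lowest astrocyte samples, but the means of 836 and 279 differed 3.00-fold, a log2 fold change of 1.64 ± 0.573 (limma adjusted p = 0.0489, exact permutation p = 0.05). This call was lost without GFP- replicate 2 (1.25) or GFP- replicate 3 (1.44) and in a fit blocked by replicate number (1.18). *Gclc* (chromosome 9, 77754533 to 77794488, plus strand), the catalytic subunit of the enzyme that limits glutathione synthesis, had levels of 392 to 2046 with a median of 1833 in WT-GFP astrocytes and of 1317, 1034 and 1443 in GFP- cells. The GFP- samples lay within the astrocyte range, and the log2 difference of 0.11 (95% interval -0.94 to 1.16) turned to -0.062 with equal totals. *Gclm* (chromosome 3, 122245557 to 122267215, plus strand), the modifier subunit of the same enzyme, had levels of 659 to 1603 with a median of 1321 in WT-GFP astrocytes and of 999, 1025 and 879 in GFP- cells. These ranges overlapped and the log2 difference was 0.30 (95% interval -0.33 to 0.93).

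Among the enzymes that use glutathione, *Gstm1* and *Gpx1* stood at opposite ends. *Gstm1* (chromosome 3, 108012251 to 108017975, minus strand), a mu-class glutathione S-transferase, had levels of 60179 to 103420 with a median of 89580 in WT-GFP astrocytes. In GFP- cells it was at 11484, 8568 and 4645. Every astrocyte sample lay above every GFP- sample, and the means differed 10.5-fold (log2 fold change 3.47 ± 0.248, limma adjusted p = 7.05e-06, exact permutation p = 0.0167, the smallest this design can give). *Gstm1* has close paralogs, and how reads shared between them were counted was not given in the sources used here.

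*Gpx1* (chromosome 9, 108339080 to 108340340, plus strand), the cytosolic glutathione peroxidase, had levels of 1332 to 5444 with a median of 2021 in WT-GFP astrocytes and of 10338, 10947 and 11597 in GFP- cells. No sample overlapped, and the mean was 4.06-fold lower in astrocytes (log2 fold change -2.17 ± 0.378, limma adjusted p = 0.00138, exact permutation p = 0.0167). *Gpx4* (chromosome 10, 80047166 to 80056439, plus strand), the peroxidase that reduces lipid peroxides in membranes, had levels of 1303 to 3319 with a median of 2216 in WT-GFP astrocytes and of 1755, 1539 and 1527 in GFP- cells. The GFP- samples lay in the lower part of the astrocyte range, and the log2 difference of 0.41 (95% interval -0.16 to 0.98) did not pass the test, although edgeR on whole reads called it (0.73).

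Of the other Nrf2 targets, *Hmox1* and *Txnrd1* were lower in astrocytes. *Hmox1* (chromosome 8, 75093617 to 75100592, plus strand), haem oxygenase 1, had levels of 49.96 to 712 with a median of 439 in WT-GFP astrocytes and of 1509, 1323 and 2067 in GFP- cells. No sample overlapped, and the mean was 4.27-fold lower in astrocytes (log2 fold change -2.44 ± 0.71, limma adjusted p = 0.0233, exact permutation p = 0.0167). *Txnrd1* (chromosome 10, 82833951 to 82897724, plus strand), cytosolic thioredoxin reductase, had levels of 492 to 1642 with a median of 1383 in WT-GFP astrocytes and of 2819, 2939 and 3255 in GFP- cells. Again no sample overlapped, and the mean was 2.67-fold lower in astrocytes (log2 fold change -1.54 ± 0.382, limma adjusted p = 0.0111, exact permutation p = 0.0167). *Nqo1* (chromosome 8, 107388225 to 107403273, minus strand), a quinone reductase, had levels of 229 to 610 with a median of 353 in WT-GFP astrocytes and of 504, 248 and 212 in GFP- cells, with overlapping ranges (log2 difference 0.25, 95% interval -0.59 to 1.09). In all, 4 of the 10 genes had levels that did not overlap between these groups, against 34.8% of all genes tested. With the mean log2 level of the microglial markers as a covariate, only *Gstm1* of the 10 was called. In that fit 2698 of all 26709 genes tested were called. The microglial markers themselves separate these groups, with 12 of 12 lower in astrocytes.

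**Figure D2:**
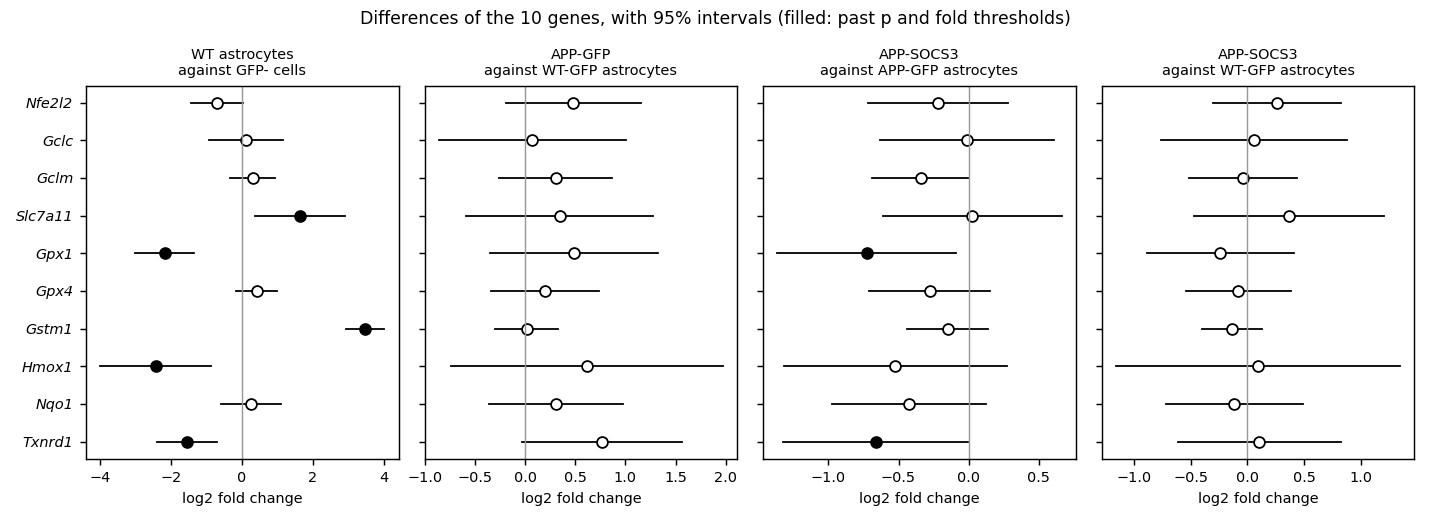
Log2 fold change of each gene (points) with its 95% interval (lines) in 4 comparisons, on a horizontal axis of its own for each; the group named first is higher to the right of 0. Filled points passed both thresholds: 5 genes in the first comparison, 2 in the third (*Gpx1* and *Txnrd1*), and none in the others.

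The 77 other genes of the pathway, in 8 lists by role, were followed in the same comparison. Of 76 that were tested, 40 were called (52.6%, against 42.8% of all genes). Of these, 22 were higher in WT-GFP astrocytes (9.25% of all genes) and 18 were lower (33.5% of all genes). The median log2 fold change of the 76 genes was close to 0, against -1.31 for all genes. The shares and the median of all genes move with the level filter and the fit, as given above. Of the 76 pathway genes, the 3 with the smallest p were all higher in astrocytes. *Prdx6*, a peroxiredoxin that uses glutathione, averaged 133450 against 10844 (log2 fold change 3.68). *Cbs*, cystathionine beta-synthase of the route from methionine to cysteine, averaged 9369 against 740 (3.72). *Gstm5*, another mu-class transferase, averaged 54831 against 3147 (4.17).

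The counts by role stand beside the same shares of all genes, 9.25% higher and 33.5% lower, and differences between lists were not tested. Of 10 regulators and partners of Nrf2, 7 were lower in astrocytes and none was higher. Of 16 thioredoxin, glutaredoxin and peroxiredoxin genes, 7 were higher and 1 was lower. Of 14 glutathione S-transferases, 6 were higher and 3 lower, and of 14 genes of glutathione synthesis, recycling and turnover, 6 were higher and 4 lower. Of 8 haem and iron genes, 2 were lower and none was higher. Of 7 NADPH supply genes 2 were higher, of 4 superoxide dismutase and catalase genes 1 was higher, and of 3 tested glutathione peroxidases 1 was lower.

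**Figure D3:**
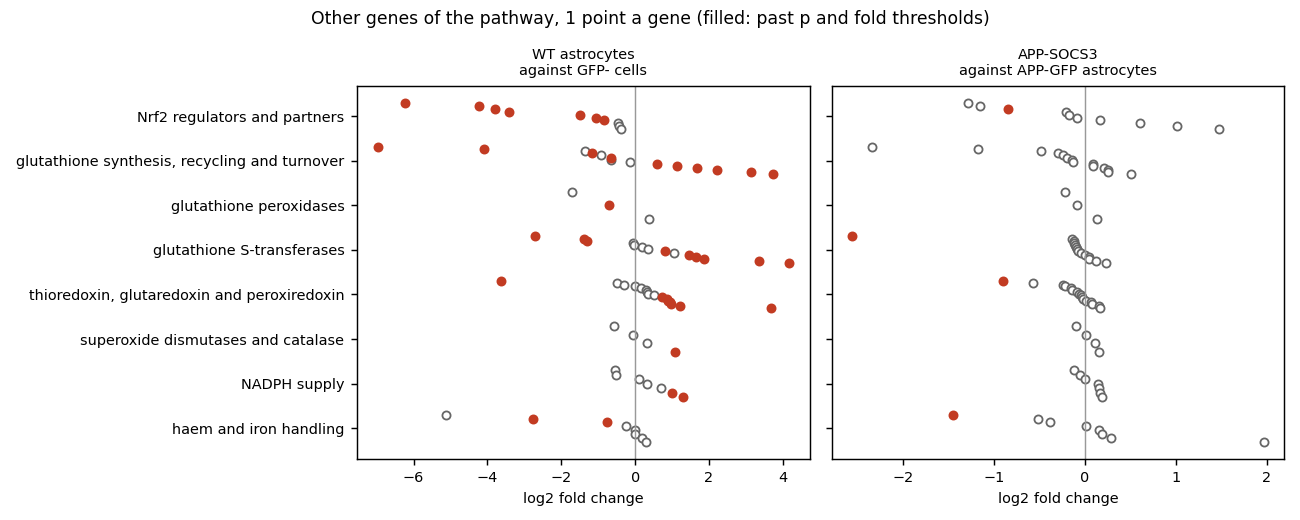
Log2 fold changes (horizontal axis) of the other tested pathway genes in 8 lists by role (vertical axis), 1 point a gene, with filled points past both thresholds. In the left panel 22 genes are filled to the right of 0 and 18 to the left; in the right panel 4 are filled, all to the left.

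APP-GFP astrocytes were then compared with WT-GFP astrocytes, to ask what the transgenes change in these cells. None of the 10 genes was called, against 2.23% of all genes tested. None had an unadjusted limma p under 0.05 either, and edgeR and DESeq2 on whole reads called none. The log2 fold changes were all above 0, from 0.014 to 0.77 with a median of 0.33, and 57.1% of all genes tested were above 0, with a median of 0.092. For *Gclc* the sign turned with edgeR (-0.017) and DESeq2 (-0.031).

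*Txnrd1* came closest. It was at 1177, 2884, 1751 and 1583 in the 4 APP-GFP samples, beside the WT-GFP range of 492 to 1642 already given. Replicate 2 of APP-GFP lay far above the rest and replicate 3 just above the WT-GFP range, while the other two lay inside it (log2 fold change 0.77 ± 0.370, limma p = 0.0588, adjusted p = 0.999, exact permutation p = 0.109). The gene was called when all 19 samples entered 1 fit and when WT-GFP replicate 3, 4 or 7 or APP-GFP replicate 1 was left out, with a highest log2 fold change of 0.96.

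*Nfe2l2* was at 1101, 1931, 1097 and 1030 in APP-GFP astrocytes. Replicate 2 alone lay above the WT-GFP range (log2 fold change 0.48, 95% interval -0.20 to 1.15). *Hmox1* was at 380, 387, 711 and 403, all within the wide WT-GFP range (0.62, 95% interval -0.74 to 1.97). *Gpx1* was at 2315, 5123, 5283 and 2132 (0.49, 95% interval -0.35 to 1.33), with replicates 2 and 3 high. Those samples had 39.7% and 48.8% of the GFP- level of microglial markers, where replicates 1 and 4 had 9.74% and 14.6%. WT-GFP replicate 2, the highest of its group in *Gpx1* at 5444, had 20.1% for microglial and 21.0% for endothelial markers. Within WT-GFP the order was not the same, since replicate 5 had the highest microglial share, 24.4%, with *Gpx1* at 2013, and replicate 3 had 19.6% with *Gpx1* at 2021. Over the 16 GFP+ samples the log2 level of *Gpx1* followed the microglial markers with Pearson r = 0.76 and Spearman rho = 0.73, a description over samples of 3 groups that share preparation and scaling. *Gstm1*, which is higher in astrocytes than in GFP- cells, gave r = 0.65 and rho = 0.68. *Gpx4* and *Txnrd1* each gave r = 0.53, and the rest lay from -0.35 (*Slc7a11*) to 0.33 (*Nqo1*). With the endothelial markers *Gpx1* gave r = 0.68 and rho = 0.71. The part of the microglial or endothelial markers in the *Gpx1* level was not tested.

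The 95% intervals of the remaining genes included 0, as did those of the genes named above. *Gclm* (1723, 1212, 1606 and 1384) gave 0.31 (95% interval -0.26 to 0.87) and *Nqo1* (434, 374, 433 and 527) gave 0.31 (-0.36 to 0.98). *Slc7a11* (1230, 848, 603 and 1140) gave 0.34 (-0.59 to 1.28) and *Gpx4* (2272, 2536, 3279 and 1890) gave 0.20 (-0.34 to 0.73). The values for *Gstm1* (74743, 93516, 104192 and 76386) gave the narrowest interval, -0.30 to 0.33 around 0.014, and those for *Gclc* (1133, 2096, 972 and 1778) gave 0.072 (-0.86 to 1.01). Of 75 other pathway genes tested, 1 was called. *Ggt5*, a gamma-glutamyl transferase gene, was at 38.0, 111, 133 and 19.2 in APP-GFP and at 0 to 132 in WT-GFP astrocytes (log2 fold change 3.22 ± 1.46, limma p = 0.0456, adjusted p = 0.999, exact permutation p = 0.0667), and it was not called with edgeR (1.49), with a pseudocount of 10 (1.74), in a fit blocked by replicate number (3.21), or without any 1 of 8 of the 11 samples (2.78 to 3.42).

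The third comparison set APP-SOCS3 against APP-GFP astrocytes, to ask what blocking the pathway changes in the diseased brain. Of the 10 genes, 2 were called, both lower with SOCS3, against 5.70% of all genes called and 3.37% called lower. Neither passed after adjustment over all genes, where 1 gene in 22844 did (0.00438%). That gene was *Socs3*, the gene carried by the virus (limma adjusted p = 0.00735). The median log2 fold change of the 10 genes was -0.31, and 9 of them were below 0, while 56.0% of all genes were above 0, with a median of 0.076.

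*Gpx1* fell, from 2315, 5123, 5283 and 2132 in APP-GFP to 2440, 1999, 2403, 1962 and 1592 in APP-SOCS3 astrocytes. APP-GFP replicates 2 and 3 were high, while replicates 1 and 4 lay within the APP-SOCS3 range (log2 fold change -0.73 ± 0.290, limma p = 0.0294, adjusted p = 0.724, exact permutation p = 0.0952). *Txnrd1* fell from the values above to 927, 1549, 1044, 1550 and 712, and here APP-GFP replicate 1 lay inside the APP-SOCS3 range (log2 fold change -0.66 ± 0.301, limma p = 0.0496, adjusted p = 0.795, exact permutation p = 0.0794). Neither was called without APP-GFP replicate 2, APP-GFP replicate 3 or APP-SOCS3 replicate 5. *Gpx1* also lost its call without APP-SOCS3 replicate 4, and *Txnrd1* without APP-GFP replicate 4 or APP-SOCS3 replicate 1 or 3. Over all samples left out in turn *Gpx1* ranged from -0.95 to -0.51 and *Txnrd1* from -0.85 to -0.42. In the same comparison 12 of 12 microglial and 10 of 10 endothelial markers were called lower with SOCS3. With the microglial markers as a covariate, *Gpx1* turned to 0.25 and *Txnrd1* to -0.030, and none of the 10 genes was called. In that fit 511 of all 22844 genes tested were called. The summed microglial markers did not overlap between these groups (5.20% to 9.45% of the GFP- mean in APP-SOCS3, 9.74% to 48.8% in APP-GFP). Marker level and SOCS3 are thus confounded here, and the fit cannot tell them apart.

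**Figure D4:**
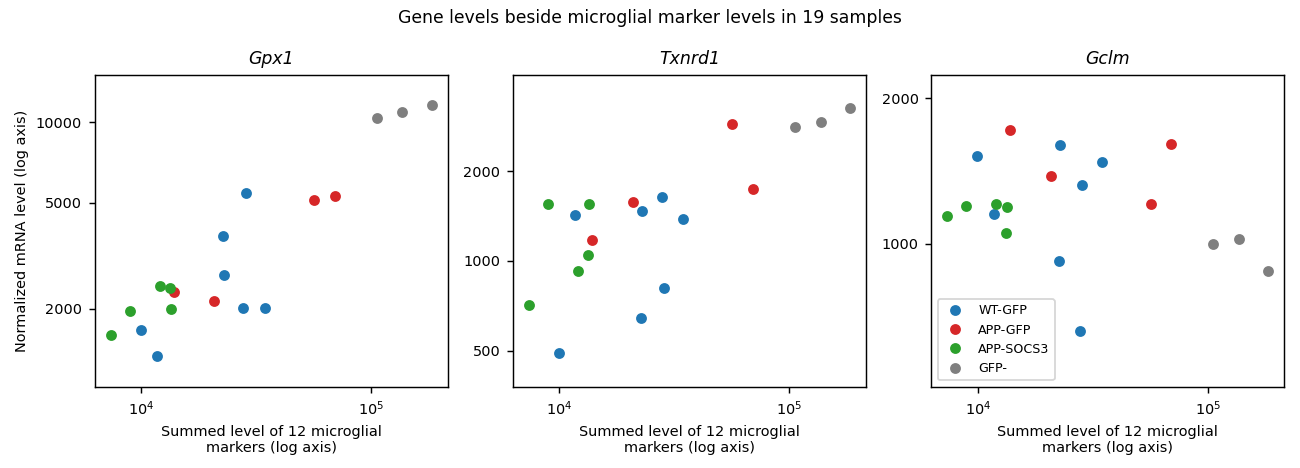
Level of *Gpx1*, *Txnrd1* and *Gclm* (vertical log axes) beside the summed level of 12 microglial markers (horizontal log axis) in 19 samples coloured by group. The 2 APP-GFP samples highest in *Gpx1* (5123 and 5283) are also highest among the astrocyte samples in microglial markers. In *Gclm* the 3 GFP- samples, with most microglial markers, lie at 879 to 1025. This is below all APP-SOCS3 and APP-GFP samples and within the WT-GFP range of 659 to 1603. The part of these markers in the levels was not tested.

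*Gclm* separated these groups without passing the thresholds. It was at 1209, 1191, 1055, 1196 and 1143 in APP-SOCS3 astrocytes, beside 1723, 1212, 1606 and 1384 in APP-GFP. No sample overlapped, though APP-GFP replicate 2 and APP-SOCS3 replicate 1 were nearly level, and of all genes tested 1.09% did not overlap in this direction. The log2 fold change was -0.34 ± 0.156 (limma p = 0.0509, adjusted p = 0.797, exact permutation p = 0.0159, the smallest this design can give), a ratio of means of 0.783. It stayed between -0.43 and -0.27 when each sample was left out in turn. The samples of APP-SOCS3 lay close together, with a coefficient of variation of 5.45% against 15.4% in APP-GFP and 28.0% in WT-GFP.

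The other 7 genes had overlapping ranges. *Hmox1* was at 523, 181, 419, 364 and 214 in APP-SOCS3 astrocytes, a log2 fold change of -0.52 (95% interval -1.32 to 0.27). *Nqo1* was at 412, 267, 321, 419 and 252, a log2 fold change of -0.42 (-0.98 to 0.13). *Nfe2l2* itself was at 1184, 1391, 914, 916 and 1017, a log2 fold change of -0.22 (-0.72 to 0.28). For each of these genes 3 of the 5 APP-SOCS3 samples lay below every APP-GFP sample and 2 lay within the APP-GFP range, and none passed the test. *Gpx4* (2365, 2082, 2225, 2084 and 1465) gave -0.28 (-0.71 to 0.15) and *Gstm1* (88194, 77001, 82049, 70998 and 72316) gave -0.15 (-0.44 to 0.14). *Gclc* (1020, 2149, 1111, 1593 and 1445) gave -0.012 (-0.63 to 0.61), and *Slc7a11* (648, 1392, 835, 758 and 1261) gave 0.025 (-0.61 to 0.66). For *Gclc* and *Slc7a11* these intervals reach from 0.645 to 1.53-fold and from 0.653 to 1.58-fold.

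Of the 76 other pathway genes tested, 4 were called (5.26%, near the 5.70% of all genes), all lower with SOCS3 (3.37% of all genes), and none after adjustment. *Slc40a1*, the iron exporter ferroportin, was at 288, 357, 231, 181 and 245 in APP-SOCS3, below the 365, 2406, 645 and 413 of APP-GFP (log2 fold change -1.45 ± 0.497, limma p = 0.0140, exact permutation p = 0.0159). *Txnip*, the thioredoxin-interacting protein, was at 214, 218, 240, 339 and 378 against 352, 668, 481 and 575 (-0.90 ± 0.288, limma p = 0.00961, exact permutation p = 0.0317). *Gstm2* was at 2.64 to 65.1 against 57.0 to 156 (-2.56 ± 0.932, limma p = 0.0190, exact permutation p = 0.0317). The other gene called was *Nfe2l1*, a relative of *Nfe2l2*, named after its values were seen (-0.84 ± 0.356, limma p = 0.0370, exact permutation p = 0.0635). All of these were also higher in GFP- cells than in WT-GFP astrocytes, with means of 5494 and 830 for *Slc40a1* and of 4078 and 350 for *Txnip*. With the microglial covariate, which is confounded with SOCS3 in this comparison, *Slc40a1* gave -0.15, *Txnip* -0.86 and *Gstm2* -0.95. None of these was called in that fit. *Gstm2* was not called with edgeR either (-1.93).

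APP-SOCS3 astrocytes were also set beside WT-GFP astrocytes. None of the 10 genes was called, against 5.21% of all genes, and none had a limma p under 0.05. Neither edgeR nor DESeq2 on whole reads called any of them. The log2 fold changes ran from -0.24 for *Gpx1* (95% interval -0.88 to 0.41) to 0.37 for *Slc7a11* (-0.47 to 1.21), with 5 of 10 genes above 0 and a median of 0.012, beside 64.2% of all genes above 0 and a median of 0.19. *Txnrd1* gave 0.10 (-0.61 to 0.82) and *Gclm* -0.037 (-0.51 to 0.44). *Hmox1* gave 0.093 (-1.16 to 1.34) and turned to -0.14 with edgeR and -0.17 with DESeq2. Of the other pathway genes tested, 2 of 76 were called. *Slc40a1*, at 384 to 1217 in WT-GFP astrocytes, was lower in every APP-SOCS3 sample (log2 fold change -1.61 ± 0.304, limma p = 0.000112, adjusted p = 0.103, exact permutation p = 0.00253). By p and fold *Slc40a1* was called in all 23 fits, the main one and that with the microglial covariate among them. Its adjusted p over these limma, edgeR and DESeq2 fits ran from 2.7e-05 to 0.9999. *Gstm2* gave -2.62 ± 0.832 (limma p = 0.00719, adjusted p = 0.571, exact permutation p = 0.0152), and with the microglial covariate it gave -0.98 and was not called. In this comparison 8 of 12 microglial and 8 of 10 endothelial markers were called lower with SOCS3. This comparison shares its samples with the others and is no separate support for them.

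Across the 16 GFP+ samples *Gpx1*, *Gpx4* and *Gstm1* varied together, with Pearson r of 0.85 for *Gpx1* and *Gpx4*, 0.85 for *Gpx4* and *Gstm1*, and 0.79 for *Gpx1* and *Gstm1*. *Gclc* and *Slc7a11* went together (r = 0.75), and *Gpx4* and *Slc7a11* went opposite ways (r = -0.80). After the group means were taken out, *Gpx4* and *Slc7a11* gave r = -0.89. These points share the scaling between samples and the sorting, and the values are a description.

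The genes of these pairs also differ in merged exon length, taken over all annotated transcripts of a gene. This is not the length of a single transcript. The merged exons of *Gpx1*, *Gstm1* and *Gpx4* measure 1.44, 1.47 and 1.72 kb, those of *Gclc* 3.77 kb and those of *Slc7a11* 13.9 kb. For each sample, the median deviation of 3938 genes with at least 5 kb of exons was set against that of 1137 genes with under 2 kb, leaving out the 10 genes. This difference ran from -0.88 (log2) in WT-GFP replicate 2 to 1.04 in WT-GFP replicate 7. Over the 16 samples it had Pearson r of 0.89 with *Slc7a11*, 0.82 with *Gclc*, -0.84 with *Gpx4*, -0.76 with *Gstm1* and -0.72 with *Gpx1*. *Hmox1* (1.75 kb, r = 0.15) and *Nqo1* (1.55 kb, r = 0.11), with short merged exons, did not follow it. Nor did *Gclm* (6.29 kb, r = 0.14), with long ones, and *Txnrd1* (7.09 kb, r = 0.34) and *Nfe2l2* (3.80 kb, r = 0.54) lay between. The listed location of *Gclm* ends at 122267215, short of the end in GENCODE M21 at 122270732. By group the median of this difference between long and short genes was 0.047 for WT-GFP, 0.16 for APP-GFP and 0.22 for APP-SOCS3, with overlapping ranges. Its part in the levels was not tested.

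**Figure D5:**
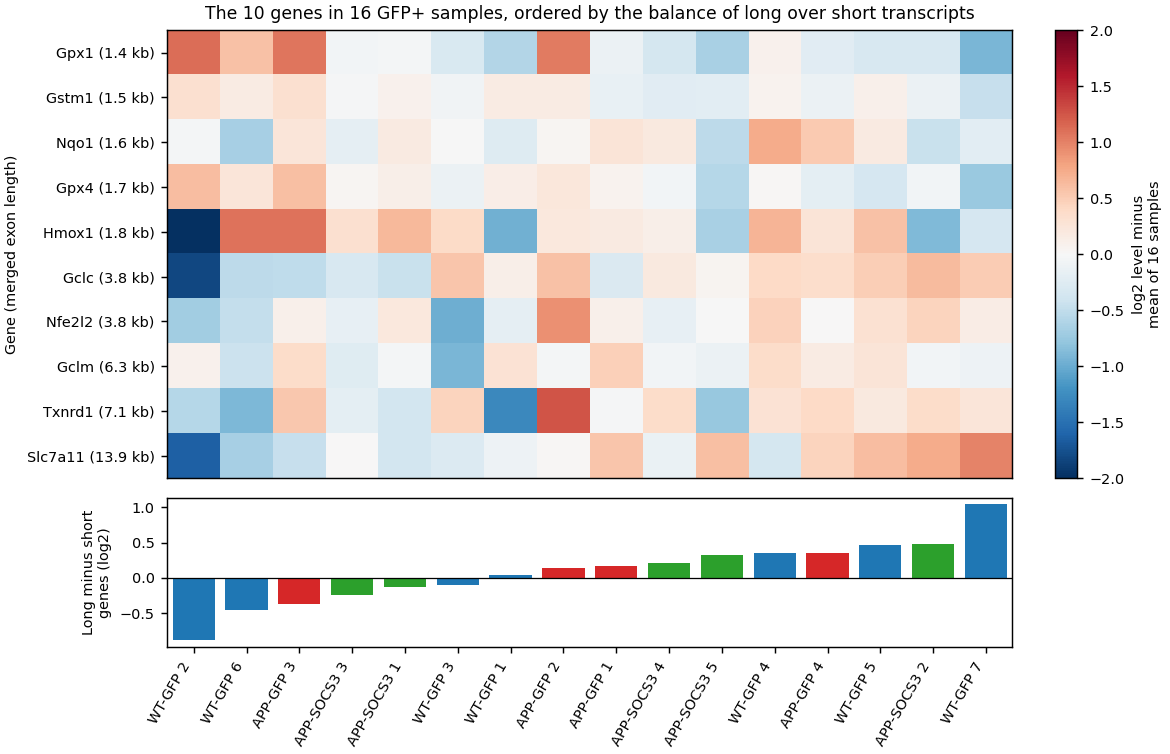
Upper panel, log2 level of each gene minus its mean over 16 GFP+ samples (colour scale, limited to -2 to 2), genes ordered by merged exon length and samples by the difference between long and short genes. Lower panel, that difference for each sample (log2), coloured blue for WT-GFP, red for APP-GFP and green for APP-SOCS3. From WT-GFP replicate 2 (-0.88) to WT-GFP replicate 7 (1.04), *Gpx1*, *Gpx4* and *Gstm1* turn from high to low and *Slc7a11* from low to high.

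Among 10661 genes with a symbol and a mean level of at least 100, those most like *Nfe2l2* over the 16 GFP+ samples were *Eif2ak1* (Pearson r = 0.95), *Gorasp1* (0.91) and *Prepl* (0.89). Of the other 9 genes, *Gclm* came closest at rank 1529 (r = 0.54). *Slc7a11* (rank 1900), *Txnrd1* (1981) and *Gclc* (2141) followed, then *Nqo1* (3726) and *Hmox1* (3967), while *Gpx1* (5720), *Gstm1* (6435) and *Gpx4* (7208) were in the lower part. Without WT-GFP replicate 3 and APP-GFP replicate 2, the samples farthest from the median of *Nfe2l2*, *Gclc* gave r = 0.74 and *Gclm* 0.38. *Slc7a11* gave 0.65, *Txnrd1* 0.59, *Hmox1* 0.41 and *Nqo1* 0.39, while *Gstm1* gave -0.32, *Gpx4* -0.43 and *Gpx1* -0.44. *Nfe2l2*, *Gclc* and *Slc7a11* also had r of 0.54, 0.82 and 0.89 with the difference between long and short genes. The part of that difference in this order was not tested.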

How the data were processed

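Sorted hippocampal cells were profiled by mRNA sequencing in 19 samples, grouped by the labels. Per the study's methods, cDNA was amplified by PCR from low-input RNA, reads were mapped to mm10 with STAR 2.4.0, counted on constitutive regions of FAST DB genes and normalized with DESeq2 by the authors. The deposited values are these normalized counts, a signal per gene. In each sample all values were whole multiples of 1 read within 0.01. Use of strand and of multimapping reads is not given in the sources used here, so levels of *Nfe2l2*, *Gclm*, *Txnrd1* and *Slc7a11*, which overlap other annotated genes, may include reads of these.

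Each pair of groups was tested with limma 3.58.1 (R 4.3.3, eBayes with trend) on log2(level + 1), for genes whose mean reached 10 in 1 of the groups. Fold changes are on that scale, which understates changes of low genes. Calls needed p of at most 0.05 and a fold of at least 1.5. Adjusted p-values are Benjamini-Hochberg over all genes tested. Exact permutation tests of single genes (scipy 1.17.1, two-sided, mean log2 levels), 40 of them on the 10 genes, are unadjusted. The alternatives were edgeR 4.0.16 and DESeq2 1.42.0 on recovered whole reads, other filters, pseudocounts and scalings, a replicate block, a microglial covariate, and leaving out samples. Intervals cover the spread between samples. Exon lengths and locations come from GENCODE M21, and promoter sequences from RefSeq. The scripts were tested on simulated data.

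The 10 genes and the lists were chosen with earlier results of these data known. All 10 genes are named in each comparison. Other pathway genes are named by the 3 smallest p among those called. The labels give no batch. The full genotype of the transgenic line is not reported here.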

Additional observations from a re-analysis of the deposited data

Results flagged for a closer look

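Single samples far from the others of their group were looked for in 30 sets of levels, the 10 genes in each of the 3 astrocyte groups, with Dixon's test, and 2 were found. By chance about 1 in 20 sets is expected to show one. *Nfe2l2* in APP-GFP replicate 2 was at 1931, and the nearest other sample of the group was at 1101. The gap was 0.921 of the range of the group. This sample had 16471 genes detected, the fewest in its group. Its 8 oligodendrocyte markers summed to 692% of the GFP- mean, against 238% to 259% in the other APP-GFP samples. Its neuronal markers (30.8%) and oligodendrocyte precursor markers (7.36%) were the highest of all GFP+ samples. *Hmox1* in APP-GFP replicate 3 was at 711, and the nearest other sample was at 403, a gap of 0.932 of the range. This sample had the highest level of microglial markers of all GFP+ samples, 48.8% of the GFP- mean. The part of detection or of these markers in the 2 values was not tested.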

How the results depend on the processing

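Of the comparison of WT-GFP astrocytes with GFP- cells, the count of 5 called genes was 5 or 6 under 10 of 11 other settings and 4 to 6 with samples left out in turn. It was 1 with the microglial covariate, which separates these groups, in a fit that called 2698 of all 26709 genes tested. *Gclc*, not called, turned to -0.062 with equal totals, -0.23 with the replicate block and -0.11 with the covariate, and ranged from -0.026 to 0.41 with samples left out in turn.

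The labels do not say whether the replicate numbers pair the samples. Correlations between same-numbered samples ran from -0.076 to 0.15, which does not exclude pairing. The same-numbered sample was the closest of its group in some pairs and not in others. The numbers were used as a block only as an alternative. With the block 0 genes were called for APP-SOCS3 against APP-GFP (2 without it), on 4 pairs and fewer samples. There *Slc7a11* turned to -0.083, and for APP-GFP against WT-GFP *Gstm1* turned to -0.064. For WT-GFP against GFP- the count was 5 with the block as without it, but *Nfe2l2* was called (-1.11) and *Slc7a11* was not (1.18). The other 2 counts were 0.

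For APP-GFP against WT-GFP, the count was 0 except for 1 (*Txnrd1*) with all 19 samples in 1 fit, and 0 to 1 with samples left out. Signs turned for *Gclc* with edgeR (-0.017) and DESeq2 (-0.031) and for *Gstm1* with the covariate (-0.14). With samples left out *Gclc* ranged from -0.23 to 0.26 and *Gstm1* from -0.077 to 0.083. For APP-SOCS3 against APP-GFP, the count was 1 (*Gpx1*) with edgeR and with a mean level of at least 100, 0 with all 19 samples in 1 fit, 0 on adjusted p, 0 with the covariate, and 0 to 2 with samples left out. The covariate turned *Gpx1* to 0.25, *Gpx4* to 0.18, *Nfe2l2* to 0.17, *Gstm1* to 0.20, *Gclc* to 0.027 and *Slc7a11* to -0.53, and edgeR turned *Gclc* to 0.0039. The summed microglial markers do not overlap between these groups, so this covariate is confounded with SOCS3. With samples left out *Gclc* ranged from -0.20 to 0.17 and *Slc7a11* from -0.18 to 0.16.

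For APP-SOCS3 against WT-GFP the count was 0 throughout. The covariate turned *Gpx1* to 0.20, *Gpx4* to 0.11, *Nqo1* to 0.14, *Gclm* to 0.022, *Gstm1* to 0.042 and *Gclc* to -0.011. *Gclc* turned with edgeR (-0.033) and DESeq2 (-0.062), and *Hmox1* with edgeR (-0.14) and DESeq2 (-0.17). With samples left out, the ranges that crossed 0 were *Gpx4* -0.20 to 0.036, *Txnrd1* -0.072 to 0.26, *Gclm* -0.18 to 0.035, *Hmox1* -0.33 to 0.30, *Nqo1* -0.22 to 0.012 and *Gclc* -0.24 to 0.18.

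Leaving out the 4 samples with fewer than 20000 genes detected was chosen after seeing the data. It gave 0 calls for APP-SOCS3 against APP-GFP. It turned *Slc7a11* to -0.015 and *Gclc* to 0.17 there, *Nfe2l2* to -0.041 and *Gclc* to -0.37 for APP-GFP against WT-GFP, and *Gpx4* to 0.096, *Txnrd1* to -0.078, *Nfe2l2* to -0.048, *Hmox1* to -0.59 and *Gclc* to -0.20 for APP-SOCS3 against WT-GFP. The cause of these shifts was not tested. Groups of 3 to 7 samples limit what can be seen: for *Hmox1* in APP-GFP against WT-GFP the 95% interval ran from -0.74 to 1.97.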
